A study of Pyrocoelia pectoralis with 6 samples.

Results

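The peroxisome genes of the firefly Pyrocoelia pectoralis were compared between the luminous organ and the non-luminous organ of males, leaving out the luciferase-like, acyl-CoA ligase and antioxidant genes of the same pathway. Members were the rows of the expression table that the authors placed in the KEGG pathway "peroxisome", without rows described as luciferin enzymes, ligases, synthetases, fatty acyl-CoA reductases, superoxide dismutases, catalases, peroxiredoxins, thioesterases, xanthine dehydrogenases or hydroxysteroid dehydrogenases, and without rows that also belong to the citric acid cycle. The pathway held 108 of the 12533 genes in the table. The rule dropped 40 of them and kept 68, sorted here by role into 13 import and biogenesis genes, 9 membrane channels and carriers, 21 genes of beta-oxidation, 3 of alpha-oxidation, 2 of ether lipid synthesis, 9 oxidases and transaminases and 11 other enzymes. A Gene Ontology term naming the peroxisome, which the rule did not use, was attached to 62 of the 68 members. The 6 without such a term were mpv17, both mpv17l2 genes, Pmvk, Hmgcll1 and Aox3, and none of these was called.

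Peroxisomes are small organelles that oxidise fatty acids, D-amino acids and hydroxy acids, a chemistry that makes hydrogen peroxide. Their matrix enzymes are made in the cytosol and imported by peroxins, the PEX proteins, most of them through the receptor PEX5, which reads a short signal at the end of the cargo protein. Firefly luciferase carries such a signal and is stored in the peroxisomes of the light-making cells, the photocytes, which are packed with these organelles. Beta-oxidation shortens acyl chains in turns of an acyl-CoA oxidase, a multifunctional hydratase and dehydrogenase, and a thiolase, and alpha-oxidation prepares branched chains for it.

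RNA-seq covered 3 luminous and 3 non-luminous libraries, all from male animals with no treatment named. The labels do not say where on the body the non-luminous organ lies, which tissues it holds, how old the animals were, or whether replicates were separate animals or pools. The p-values therefore reflect only how these libraries vary, part of which may be technical. Library totals read from the deposited values were 18.95 to 20.42 M reads for the luminous organ and 18.04 to 18.86 M for the other organ. The members took 67844 to 89642 reads of each luminous library and 102063 to 112265 of each non-luminous library. Over the tested members, luminous replicate 2 stood nearer to the non-luminous libraries (Pearson's r across genes of 0.919 to 0.950) than luminous replicates 1 and 3 did (0.80 to 0.858). With luminous replicates 1 and 3 its r was 0.919 and 0.944, so it stood about as near to the other organ as to its own. These r values describe genes, which are not independent replicates. The counts of called members are therefore also given without that library. As a check of the labels, the luciferin 4-monooxygenase (luciferase) gene RI129_003463 had 532, 374 and 292 FPKM in luminous libraries, against 0.322, 0.595 and 0.505 FPKM in non-luminous libraries. The check rests on this gene, since most genes of that description did not share its direction. Of 31 such genes 21 were tested, and by the calls defined below 2 were higher and 12 lower in the luminous organ.

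Most peroxisomal enzymes that differed were lower in the luminous organ. Import genes were called lower at a share near that of all tested genes. Values are FPKM, reads scaled to gene length and library total, and each difference, luminous minus non-luminous, is of log2(FPKM + 1). Calls are adjusted p-values (Benjamini-Hochberg) under 0.05 in a limma fit over the 9863 genes whose mean reached 1 FPKM, in which 26.6% of genes were called, 9.63% higher and 17.0% lower. Of the 68 members 62 passed that minimum, and of these 3 were higher (4.84%), 24 lower (38.7%) and 35 not called. The median difference of the 62 was -0.25, against -0.09 over all tested genes. Without regard to calls, 30 tested members lay below the non-luminous range in every luminous library (48.4%, against 28.7% of all tested genes) and 7 lay above it (11.3%, against 17.4%); in all, 46.1% of tested genes had groups without overlap. The 24 lower genes lay in every role but ether lipid synthesis, and the 3 higher genes were all copies described as DHRS4. Of the 68 members 36 fell into 7 groups of like-named genes. Among the lower genes were 4 copies of acyl-CoA oxidase 3 and 2 of DHRS4. Carnitine O-acetyltransferase, alanine-glyoxylate aminotransferase and D-aspartate oxidase gave 3 each. How reads were divided among similar copies is not known, so single copies in these groups are uncertain. In whole organs, fewer cells of a type and less RNA per cell cannot be told apart.

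Without luminous replicate 2 the members called were 4 higher and 27 lower. By role these were 2 import genes, 1 membrane gene, 12 beta-oxidation genes, 2 alpha-oxidation genes, 7 oxidases and transaminases and 3 other enzymes lower, and 2 membrane genes and 2 other enzymes higher. Leaving out luminous replicate 1 gave 4 higher and 21 lower, and leaving out luminous replicate 3 gave 2 higher and 15 lower. Leaving out non-luminous replicate 1 gave 2 higher and 18 lower, replicate 2 gave 3 and 13, and replicate 3 gave 1 and 10. Calls over all 9863 tested genes changed too, from 950 higher and 1676 lower with every library. Without non-luminous replicates 1, 2 and 3 in turn they were 553, 557 and 362 higher and 979, 1020 and 757 lower. Without luminous replicates 1, 2 and 3 in turn they were 954, 920 and 584 higher and 1694, 1698 and 1022 lower. Such fits rest on fewer libraries. Quantile normalization gave 6 higher and 21 lower, so that 22.2% of calls were higher, against 11.1% as deposited. It also moved the median difference of all tested genes by 0.17, to 0.07.

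**Figure D1:**
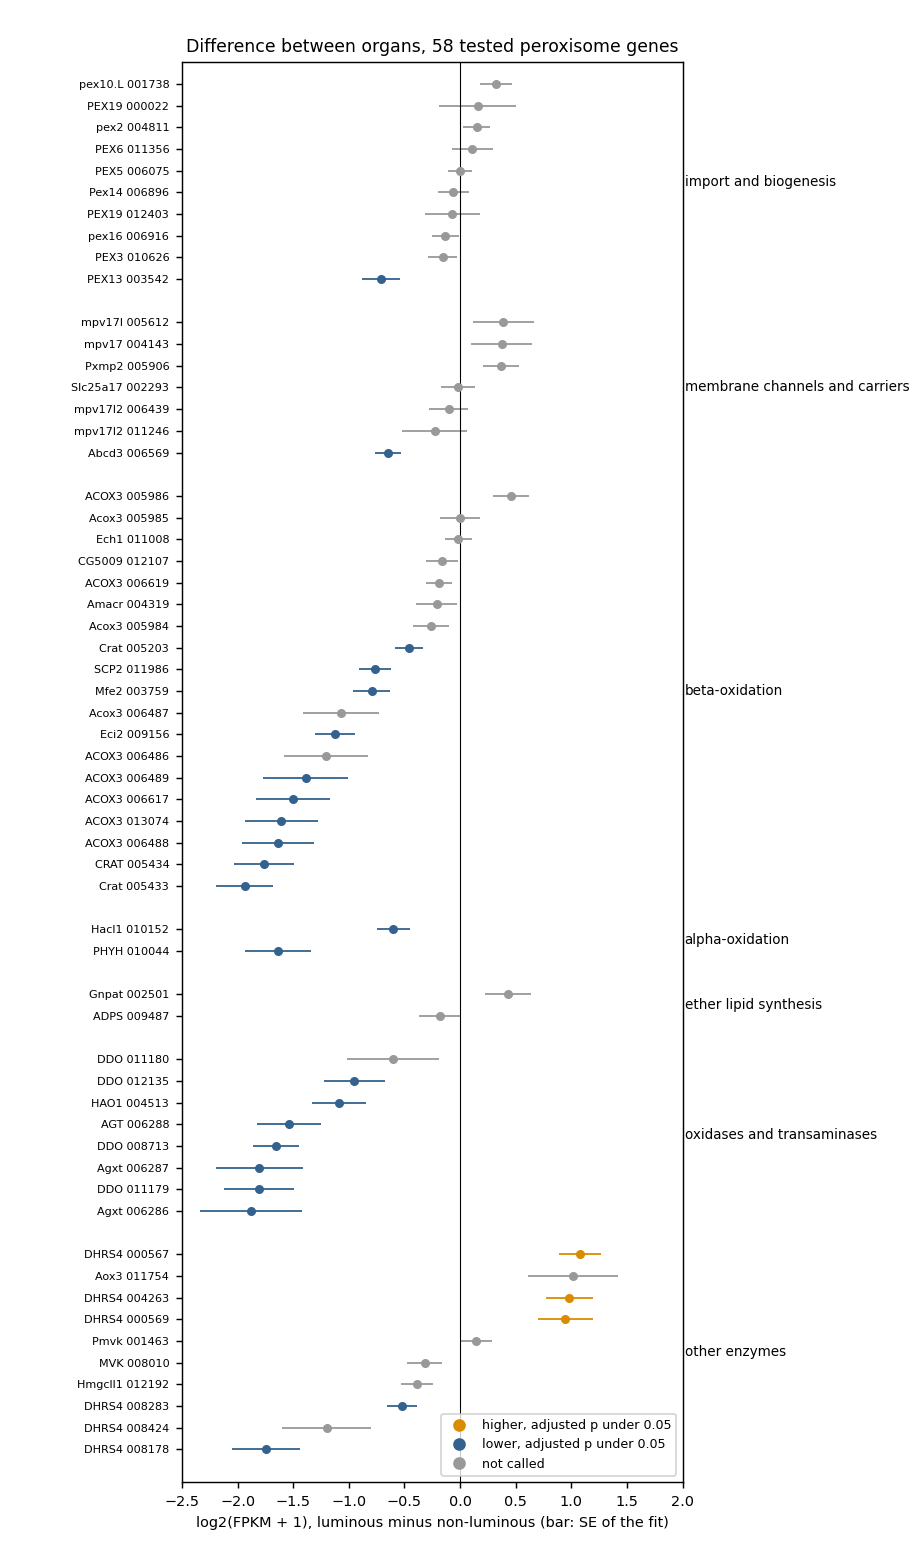
Difference between organs for 58 of the tested peroxisome genes, grouped by role. The x axis is the difference of log2(FPKM + 1), luminous minus non-luminous, points are limma estimates, bars are their standard errors, and colours mark genes called higher, called lower or not called. The peroxins drawn cluster around 0 apart from PEX13, while the oxidases and transaminases all lie left of 0.

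Among import and biogenesis genes, PEX13 was among those lower in the luminous organ and no gene was higher, except pex10.L after quantile normalization (limma adjusted p = 0.0242, with 0.0242 to 0.281 over all alternatives). Of the 13 import and biogenesis genes, all tested, 2 were lower and 11 not called, with a median difference of -0.06. The share called lower, 15.4%, was near the 17.0% of all tested genes. PEX5 (RI129_006075), the receptor for most matrix proteins, had 115, 112 and 100 FPKM in luminous libraries, against 115, 103 and 109 FPKM in non-luminous libraries. Its means were 109 ± 7.97 FPKM in luminous and 109 ± 5.77 FPKM in non-luminous libraries (SD, n = 3 each), and its difference was -0.00 with a standard error of 0.107.

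PEX13 (RI129_003542) forms, with PEX14, the membrane dock at which PEX5 delivers its cargo. It had 103, 144 and 94.7 FPKM in luminous libraries, against 169, 193 and 192 FPKM in non-luminous libraries, without overlap. Its difference was -0.71 (SE 0.169, limma adjusted p = 0.0209). Its dock partner Pex14 (RI129_006896) had 71.2, 61.3 and 53.7 FPKM in luminous libraries and 57.6, 65.7 and 70.5 FPKM in non-luminous libraries, and the groups overlapped.

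The call of PEX13 depended on single libraries and was lost on leaving out luminous replicate 3, non-luminous replicate 2 or non-luminous replicate 3 (limma adjusted p of 0.0621, 0.0721 and 0.0793, with 0.00364 to 0.0793 over all alternatives). In each of the 3 fits lacking luminous replicate 3, non-luminous replicate 2 or non-luminous replicate 3, no import gene was called lower.

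The other import genes include the ring-finger proteins that ubiquitinate PEX5 so that it can be reused, and the ATPases that pull it from the membrane. The ring-finger genes pex2 (RI129_004811) and pex10.L (RI129_001738) averaged 21.4 ± 1.08 and 13.7 ± 1.29 FPKM in luminous libraries, against 19.2 ± 0.995 and 10.7 ± 0.184 FPKM for the non-luminous organ (SD, n = 3 each). Every luminous value of both lay above every non-luminous value, and neither was called (limma adjusted p of 0.407 and 0.133). PEX6 (RI129_011356), one of the ATPases, averaged 4.84 ± 0.627 FPKM in luminous and 4.40 ± 0.328 FPKM in non-luminous libraries (SD, n = 3 each). It was not called (limma adjusted p = 0.701), and its groups overlapped.

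The genes that place membrane proteins were likewise not called. PEX3 (RI129_010626), the membrane anchor for new membrane proteins, averaged 36.4 ± 4.0 FPKM in the luminous organ, against 40.7 ± 3.48 FPKM for the non-luminous organ (SD, n = 3 each). Its partner pex16 (RI129_006916) averaged 27.9 ± 1.42 FPKM in luminous and 30.7 ± 2.47 FPKM in non-luminous libraries. Of the genes for their soluble chaperone, PEX19 RI129_012403 averaged 14.3 ± 5.07 FPKM in luminous and 14.5 ± 1.58 FPKM in non-luminous libraries, and PEX19 RI129_000022 4.41 ± 2.18 FPKM in luminous and 3.76 ± 1.46 FPKM in non-luminous libraries. PEX7 (RI129_006386), the receptor for the other kind of import signal, lies outside the pathway column and averaged 11.3 FPKM in the luminous organ, against 10.6 FPKM for the non-luminous organ (limma adjusted p = 0.836).

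**Figure D2:**
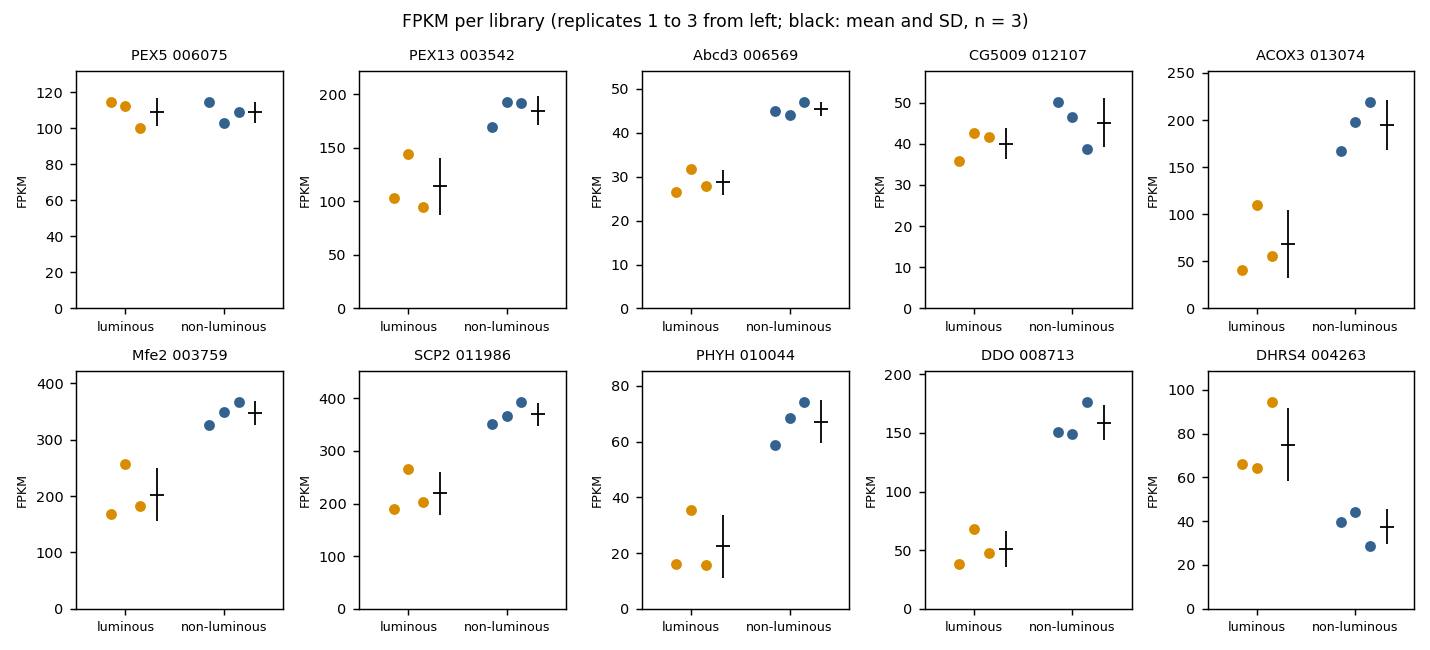
FPKM of 10 peroxisome genes in each library. The y axes are linear and start at 0, points are libraries in replicate order within each organ, and black marks are means with SD (n = 3). PEX5 and CG5009 overlap between organs, DHRS4 RI129_004263 lies higher in the luminous organ, and the other 7 genes lie lower in every luminous library.

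Of the channels and carriers of the membrane, only Abcd3 was called. Among 9 genes 8 were tested, with 1 lower, 7 not called and a median difference of -0.06. The share called lower, 12.5%, was also near the 17.0% of all tested genes. Abcd3 (RI129_006569), known in mammals as the abundant membrane protein PMP70 that takes up branched-chain and dicarboxylic acyl chains, had 26.5, 31.8 and 27.8 FPKM in luminous libraries, against 45.1, 44.1 and 47.1 FPKM in non-luminous libraries. The organs did not overlap, and the difference was -0.65 (SE 0.119, limma adjusted p = 0.00904), called under every alternative run.

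Pxmp2 (RI129_005906), a channel for small molecules, averaged 100 ± 15.9 FPKM in the luminous organ, against 77.6 ± 11.4 FPKM for the non-luminous organ (SD, n = 3 each; limma adjusted p = 0.137). The carrier gene Slc25a17 (RI129_002293), for PMP34, averaged 11.8 ± 0.928 FPKM in luminous and 12 ± 1.29 FPKM in non-luminous libraries. The 4 tested genes of the Mpv17 family, membrane proteins of peroxisomes or mitochondria, were not called, and their groups overlapped. Without luminous replicate 2, mpv17 (RI129_004143) and mpv17l (RI129_005612) were called higher (limma adjusted p of 0.0499 and 0.0498). Over all alternatives their adjusted p ranged from 0.0499 to 0.690 and from 0.0498 to 0.657.

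In beta-oxidation, Mfe2 and SCP2, of the later steps, were lower in the luminous organ. Of acyl-CoA oxidase, the first step, some copies were called lower and the others not called. Of 21 genes 19 were tested, with 10 lower, 9 not called and a median difference of -0.79. The share called lower was 52.6%, against 17.0% of all tested genes. Mfe2 (RI129_003759), the multifunctional hydratase and dehydrogenase, had 169, 256 and 183 FPKM in luminous libraries, against 325, 349 and 367 FPKM in non-luminous libraries. SCP2 (RI129_011986), which in mammals includes the thiolase for branched chains, had 189, 265 and 204 FPKM in luminous libraries, against 351, 366 and 393 FPKM in non-luminous libraries. These genes were the most abundant of the role in both organs, and for both the organs did not overlap.

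The differences of Mfe2 and SCP2 were -0.79 (SE 0.167, limma adjusted p = 0.0141) and -0.76 (SE 0.147, limma adjusted p = 0.0104). The ratio of SCP2 to Mfe2 overlapped between the organs, at 1.12, 1.04 and 1.11 in luminous libraries and 1.08, 1.05 and 1.07 in non-luminous libraries. Eci2 (RI129_009156), an isomerase that readies unsaturated chains, had 14.5, 12.5 and 10.6 FPKM in luminous libraries, against 28.1, 23.9 and 33.8 FPKM in non-luminous libraries. Its difference was -1.13 (SE 0.180, limma adjusted p = 0.00567), and its groups did not overlap. Amacr (RI129_004319), the racemase that readies branched chains, averaged 80.9 ± 22.3 FPKM in luminous and 91.5 ± 2.14 FPKM in non-luminous libraries (SD, n = 3 each). It was not called in the full set and was called lower in the fit lacking luminous replicate 2 (limma adjusted p = 0.0303, with 0.0303 to 0.750 over all alternatives). Ech1 (RI129_011008), an isomerase described as mitochondrial, averaged 66.9 ± 6.36 FPKM in the luminous organ, against 67.5 ± 4.92 FPKM for the non-luminous organ.

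The role's count of lower genes was 4 without non-luminous replicate 3, 7 without non-luminous replicate 2, 8 when luminous replicate 1 or 3 or non-luminous replicate 1 was left out, and 12 without luminous replicate 2. Without non-luminous replicate 3 the call of Mfe2 was lost (limma adjusted p = 0.0604, range 0.00245 to 0.0604), while SCP2 and Eci2 were called under every alternative run.

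Acyl-CoA oxidase, the hydrogen peroxide-forming first step, was represented by 12 genes: CG5009 (RI129_012107), described as oxidase 1, and 11 copies described as oxidase 3. CG5009 had 35.8, 42.6 and 41.7 FPKM in luminous libraries and 50.2, 46.5 and 38.6 FPKM in non-luminous libraries, with overlap, and was not called (limma adjusted p = 0.429). Of the oxidase 3 copies 10 were tested, with 4 lower (40%, against 17.0% of all tested genes) and 6 not called. Several have neighbouring identifiers, as in RI129_005984 to RI129_005986 and RI129_006486 to RI129_006490. The table gives no coordinates, and the rule by which reads were assigned to similar copies is not known, so single copies are uncertain.

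The most abundant oxidase 3 copy differed between the organs. In the non-luminous organ it was RI129_013074, with 167, 198 and 220 FPKM, against 41.1, 109 and 55.2 FPKM in luminous libraries. Its difference was -1.61 (SE 0.326, limma adjusted p = 0.0125), and the groups did not overlap. RI129_006619 had 90.0, 88.2 and 98.1 FPKM in luminous libraries and 96.3, 102 and 117 FPKM in non-luminous libraries, with overlap, and was not called (limma adjusted p = 0.276). It led the luminous mean at 92.1 ± 5.24 FPKM, though luminous replicate 2 had more of RI129_013074.

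As a share of all oxidase 3 FPKM, RI129_006619 made up 38.7%, 27.5% and 38.8% in luminous libraries, against 22.6%, 21.1% and 22.6% in non-luminous libraries. The share of RI129_013074 was 17.7%, 34.1% and 21.8% in luminous libraries, against 39.2%, 41.1% and 42.2% in non-luminous libraries. Both shares were chosen after the values were seen and were not tested.

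The neighbouring copies RI129_006486 to RI129_006490 summed to 19.3, 55.6 and 27.7 FPKM in luminous libraries, against 73.0, 92.8 and 101.1 FPKM in non-luminous libraries. Among them RI129_006488 differed by -1.64 (SE 0.324, limma adjusted p = 0.0114) and RI129_006489 by -1.39 (SE 0.383, limma adjusted p = 0.0346). The copies RI129_006486 and RI129_006487 fell just outside the threshold (-1.20 and -1.07, limma adjusted p of 0.0529 and 0.0546), and RI129_006490, at or below 1.21 FPKM in every library, was under the minimum. The copy RI129_006617 had 4.40, 12.8 and 6.07 FPKM in luminous libraries, against 18.2, 24.6 and 23.2 FPKM in non-luminous libraries (-1.50, SE 0.335, limma adjusted p = 0.0169).

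The other run, RI129_005984 to RI129_005986, summed to 78.0, 55.2 and 66 FPKM in luminous libraries and 71.7, 64.6 and 59.4 FPKM in non-luminous libraries, with overlap. No gene of it was called as deposited, with differences of -0.26, -0.00 and 0.45. RI129_005986, the highest of these, was called higher after median-of-ratios rescaling and quantile normalization (limma adjusted p of 0.0395 and 0.0180, range 0.0180 to 0.228). Summed over all 11 copies, which is less sensitive to that assignment, oxidase 3 stood at 269 ± 46.3 FPKM in the luminous organ, against 476 ± 47.5 FPKM for the non-luminous organ (SD, n = 3 each).

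Calls of single oxidase copies were fragile. Those of RI129_006488 and RI129_013074 were lost without non-luminous replicate 3 (limma adjusted p of 0.0533 and 0.0557, ranges 0.00193 to 0.0533 and 0.00114 to 0.0557), and that of RI129_006617 on leaving out luminous replicate 3, non-luminous replicate 2 or non-luminous replicate 3 (0.0568, 0.0622 and 0.0675, range 0.00203 to 0.0675). That of RI129_006489 was lost in each fit without 1 library, except the one without luminous replicate 2 (0.0600 to 0.116), and with no filter and after quantile normalization (0.0538 and 0.0506, range over all alternatives 0.00233 to 0.116), while RI129_006487 was called without luminous replicate 2 and by voom on recovered reads (0.00490 and 0.0436, range 0.00490 to 0.156) and RI129_006486 without luminous replicate 3 and with a pseudocount of 5 (0.0372 and 0.0459, range 0.0372 to 0.169).

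**Figure D3:**
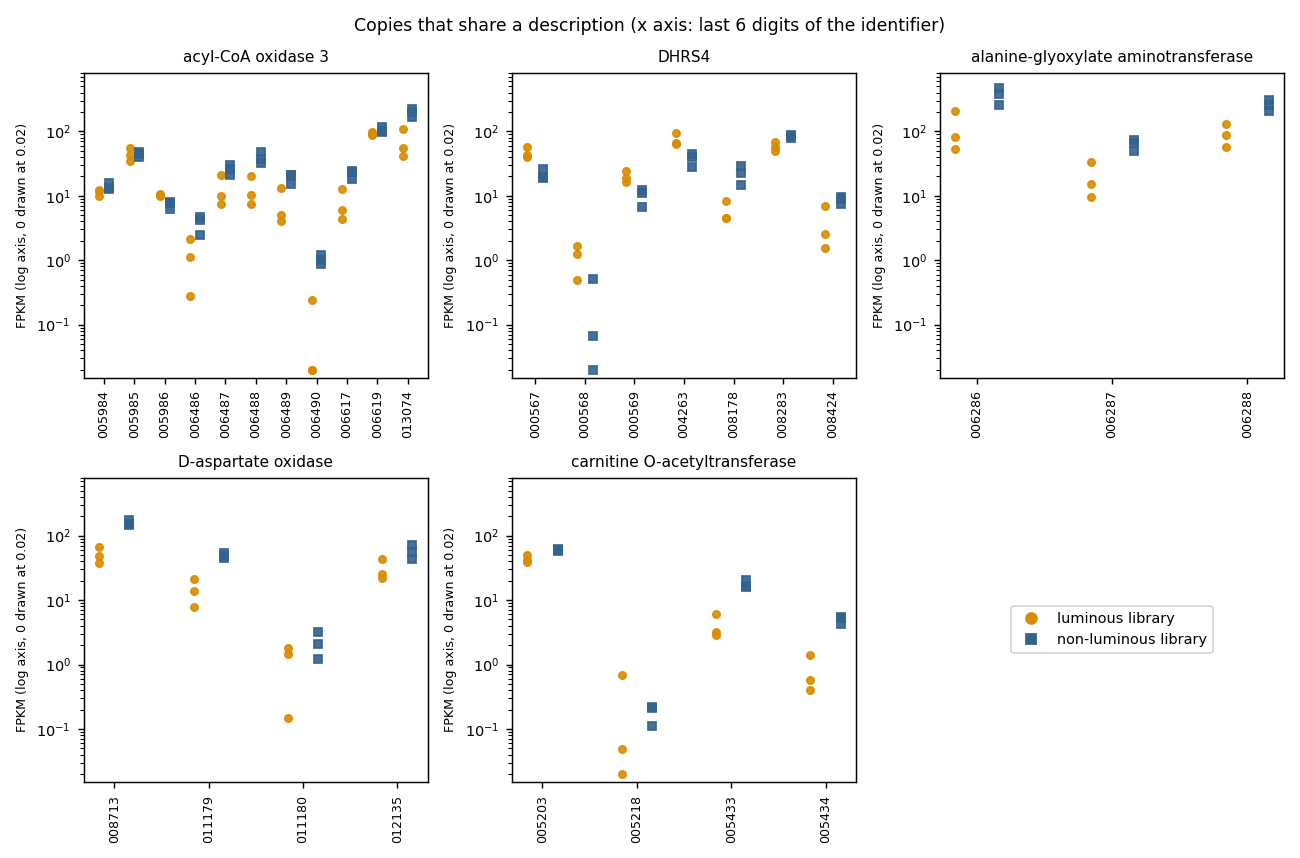
FPKM of peroxisome genes that share a description, one column per gene, named by the last digits of its identifier. The y axis is logarithmic, circles are luminous libraries, squares are non-luminous libraries, and a value of 0 is drawn at the bottom. Among DHRS4 copies some lie higher and some lower in the luminous organ, among acyl-CoA oxidase 3 copies some lie lower and others close together, and the aminotransferase copies and 3 of the 4 D-aspartate oxidase copies lie lower in every luminous library.

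Carnitine O-acetyltransferase, which turns the acetyl-CoA made by beta-oxidation into an exportable ester, was lower in each of its 3 tested copies. Crat RI129_005433 had 3.17, 6.04 and 2.89 FPKM in luminous libraries, against 15.8, 16.6 and 20.7 FPKM in non-luminous libraries, and its -1.94 (SE 0.259, limma adjusted p = 0.00338) was the largest fitted difference of the 62 members at a pseudocount of 1. The neighbouring CRAT RI129_005434 had 0.565, 1.40 and 0.409 FPKM in luminous libraries, against 5.19, 5.39 and 4.26 FPKM in non-luminous libraries (-1.77, SE 0.271, limma adjusted p = 0.00506). At a pseudocount of 0.1 its difference was -2.65, against -2.17 for RI129_005433. It was the 1 tested member with a mean under 1 FPKM in an organ, so it passed the minimum through the non-luminous libraries. The most abundant copy, Crat RI129_005203, averaged 43.7 ± 5.77 FPKM in the luminous organ, against 60.1 ± 1.87 FPKM for the non-luminous organ (SD, n = 3 each; difference -0.46, limma adjusted p = 0.0343). Its call was lost in each fit without 1 library, except the one without luminous replicate 2 (limma adjusted p of 0.0668 to 0.111), and after median-of-ratios rescaling, after quantile normalization and with no intensity trend (0.0664, 0.0917 and 0.0571, range over all alternatives 0.0154 to 0.111).

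Both tested genes of alpha-oxidation were lower. PHYH (RI129_010044), which hydroxylates phytanoyl-CoA, had 16.1, 35.4 and 15.8 FPKM in luminous libraries, against 58.8, 68.4 and 74.2 FPKM in non-luminous libraries. Its difference was -1.63 (SE 0.296, limma adjusted p = 0.00868), called under every alternative run. Hacl1 (RI129_010152), the lyase of the next step, had 41.7, 44.8 and 33.7 FPKM in luminous libraries, against 54.7, 60.7 and 67.9 FPKM in non-luminous libraries (-0.60, SE 0.147, limma adjusted p = 0.0231). In both genes the organs did not overlap. The call of Hacl1 was lost on leaving out luminous replicate 3, non-luminous replicate 2 or non-luminous replicate 3 (limma adjusted p of 0.0618, 0.0710 and 0.0925, range over all alternatives 0.0203 to 0.0925).

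The ether lipid genes, whose products become plasmalogens, were low in both organs and not called. Gnpat (RI129_002501), the acyltransferase of the first step, had 5.87, 9.01 and 6.13 FPKM in luminous libraries and 5.07, 4.60 and 4.86 FPKM in non-luminous libraries. Every luminous value lay above every non-luminous value (difference 0.43, limma adjusted p = 0.158), and after quantile normalization the gene was called higher (0.0334, range 0.0334 to 0.344). ADPS (RI129_009487), of the step that forms the ether bond, averaged 6.26 ± 1.11 FPKM in the luminous organ, against 7.19 ± 0.520 FPKM for the non-luminous organ (SD, n = 3 each), with overlap.

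The oxidases and transaminases of amino and hydroxy acids had the lowest median difference of the 7 roles. Of 9 genes 8 were tested, with 7 lower, 1 not called and a median difference of -1.60. The share called lower was 87.5%, against 17.0% of all tested genes. Alanine-glyoxylate aminotransferase, which turns glyoxylate into glycine, was described for 3 genes with neighbouring identifiers. Agxt RI129_006286 had 53.5, 204 and 81.9 FPKM in luminous libraries, against 258, 382 and 465 FPKM in non-luminous libraries. AGT RI129_006288 had 88.4, 132 and 57.6 FPKM in luminous libraries, against 209, 258 and 310 FPKM in non-luminous libraries. The organs did not overlap for either gene, and luminous replicate 2 was the highest luminous library of both.

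The 3 aminotransferase copies differed by -1.88, -1.81 and -1.54 in identifier order (SE 0.461, 0.390 and 0.291, limma adjusted p of 0.0235, 0.0152 and 0.0100). Their sum was 152, 369 and 155 FPKM in luminous libraries, against 517, 706 and 849 FPKM in non-luminous libraries. RI129_006286 and RI129_006287 lost their calls on leaving out luminous replicate 3, non-luminous replicate 2 or non-luminous replicate 3 (limma adjusted p of 0.0752, 0.0739 and 0.0910, and of 0.0518, 0.0540 and 0.0646). Over all alternatives their adjusted p ranged from 0.00248 to 0.0910 and from 0.00182 to 0.0646. RI129_006288 was called under every alternative run.

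D-aspartate oxidase, which oxidises acidic D-amino acids and forms hydrogen peroxide, was described for 4 genes, of which 3 were lower. DDO RI129_008713 had 37.8, 67.9 and 47.6 FPKM in luminous libraries, against 151, 149 and 176 FPKM in non-luminous libraries, and differed by -1.65 (SE 0.207, limma adjusted p = 0.00277, the lowest of the members). DDO RI129_011179 had 13.7, 21.5 and 7.70 FPKM in luminous libraries, against 48.9, 52.9 and 44.9 FPKM in non-luminous libraries (-1.81, SE 0.315, limma adjusted p = 0.00761). Both were called under every alternative run. DDO RI129_012135 differed by -0.95 (limma adjusted p = 0.0415), the called member nearest to the threshold, and lost its call in each fit without 1 library, except the one without luminous replicate 2 (0.0552 to 0.142) and after both rescalings, with no filter and with no intensity trend (0.0603, 0.0654, 0.0588 and 0.0591, range over all alternatives 0.00920 to 0.142). The remaining copy, RI129_011180, stood at 1.14 ± 0.875 FPKM in the luminous organ, against 2.14 ± 0.968 FPKM for the non-luminous organ (SD, n = 3 each) and was not called.

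HAO1 (RI129_004513), which oxidises glycolate to glyoxylate, had 22.1, 14.8 and 10.5 FPKM in luminous libraries, against 34.6, 32.5 and 32.8 FPKM in non-luminous libraries. Its difference was -1.09 (SE 0.241, limma adjusted p = 0.0165), and the organs did not overlap. The call was lost without each non-luminous replicate in turn (limma adjusted p of 0.0614, 0.0533 and 0.0617, range over all alternatives 0.00280 to 0.0617). The role's count of lower genes was 3 when non-luminous replicate 2 or 3 was left out and 4 without luminous replicate 3.

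The genes called higher were copies of DHRS4, a short-chain dehydrogenase that in mammals reduces retinal and other carbonyl compounds. DHRS4 RI129_000567 had 40.2, 42.6 and 57.3 FPKM in luminous libraries, against 19.7, 26.4 and 18.7 FPKM in non-luminous libraries (1.08, SE 0.190, limma adjusted p = 0.00795). RI129_004263 had 66.2, 64.4 and 94.4 FPKM in luminous libraries, against 39.8, 44.2 and 28.5 FPKM in non-luminous libraries (0.98, SE 0.211, limma adjusted p = 0.0150). RI129_000569, whose identifier is next but one to that of RI129_000567, differed by 0.95 (SE 0.249, limma adjusted p = 0.0294). In all 3 genes every luminous library lay above every non-luminous library.

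Other copies with the same description went the opposite way. RI129_008178 had 4.60, 8.43 and 4.54 FPKM in luminous libraries, against 14.5, 28.8 and 22.8 FPKM in non-luminous libraries (-1.75, SE 0.306, limma adjusted p = 0.00780). RI129_008283 had 57.4, 68.2 and 50.1 FPKM in luminous libraries, against 85.1, 80.1 and 87.3 FPKM in non-luminous libraries (-0.53, SE 0.135, limma adjusted p = 0.0269). RI129_008424 averaged 3.73 ± 2.90 FPKM in luminous and 8.69 ± 1.14 FPKM in non-luminous libraries (SD, n = 3 each) and was not called, except in the fit lacking luminous replicate 2 (limma adjusted p = 0.00475, with 0.00475 to 0.166 over all alternatives). Summed over all 7 copies, DHRS4 stood at 187, 211 and 235 FPKM in luminous libraries and 178, 202 and 173 FPKM in non-luminous libraries, with overlap. The 3 copies called higher made up 65.7%, 59.8% and 74.95% of that sum in luminous libraries, against 39.6%, 41.2% and 31.2% in non-luminous libraries, a share chosen after the values were seen and not tested.

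RI129_000567 and RI129_008178 were called under every alternative run, and RI129_004263 lost its call without non-luminous replicate 3 (limma adjusted p = 0.0527, range 0.0124 to 0.0527). The call of RI129_000569 was lost on leaving out luminous replicate 2 or 3 or non-luminous replicate 1 or 3 (0.0564, 0.0927, 0.0663 and 0.0822, range 0.0190 to 0.0927), and that of RI129_008283 on leaving out luminous replicate 3 or any 1 non-luminous replicate (0.0738, 0.0845, 0.0663 and 0.0987, range 0.0118 to 0.0987).

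The other enzymes of the list were not called. Aox3 (RI129_011754), described as an aldehyde oxidase, had 14.6, 33.5 and 50.5 FPKM in luminous libraries and 17.0, 14.1 and 11.3 FPKM in non-luminous libraries. Luminous replicate 1 lay within the non-luminous range, and without it the gene was called higher (limma adjusted p = 0.00531, range 0.00531 to 0.268). MVK (RI129_008010) and Pmvk (RI129_001463), consecutive kinases of isoprenoid synthesis, averaged 20.3 ± 3.10 and 19.8 ± 2.2 FPKM in luminous libraries, against 25.4 ± 2.73 and 17.8 ± 1.86 FPKM for the non-luminous organ (SD, n = 3 each), and every luminous value of MVK lay below every non-luminous value. Hmgcll1 (RI129_012192), a lyase that splits hydroxymethylglutaryl-CoA, averaged 12.2 ± 0.398 FPKM in luminous and 16.3 ± 1.88 FPKM in non-luminous libraries, and its luminous values lay below every non-luminous value (limma adjusted p = 0.0881).

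**Figure D4:**
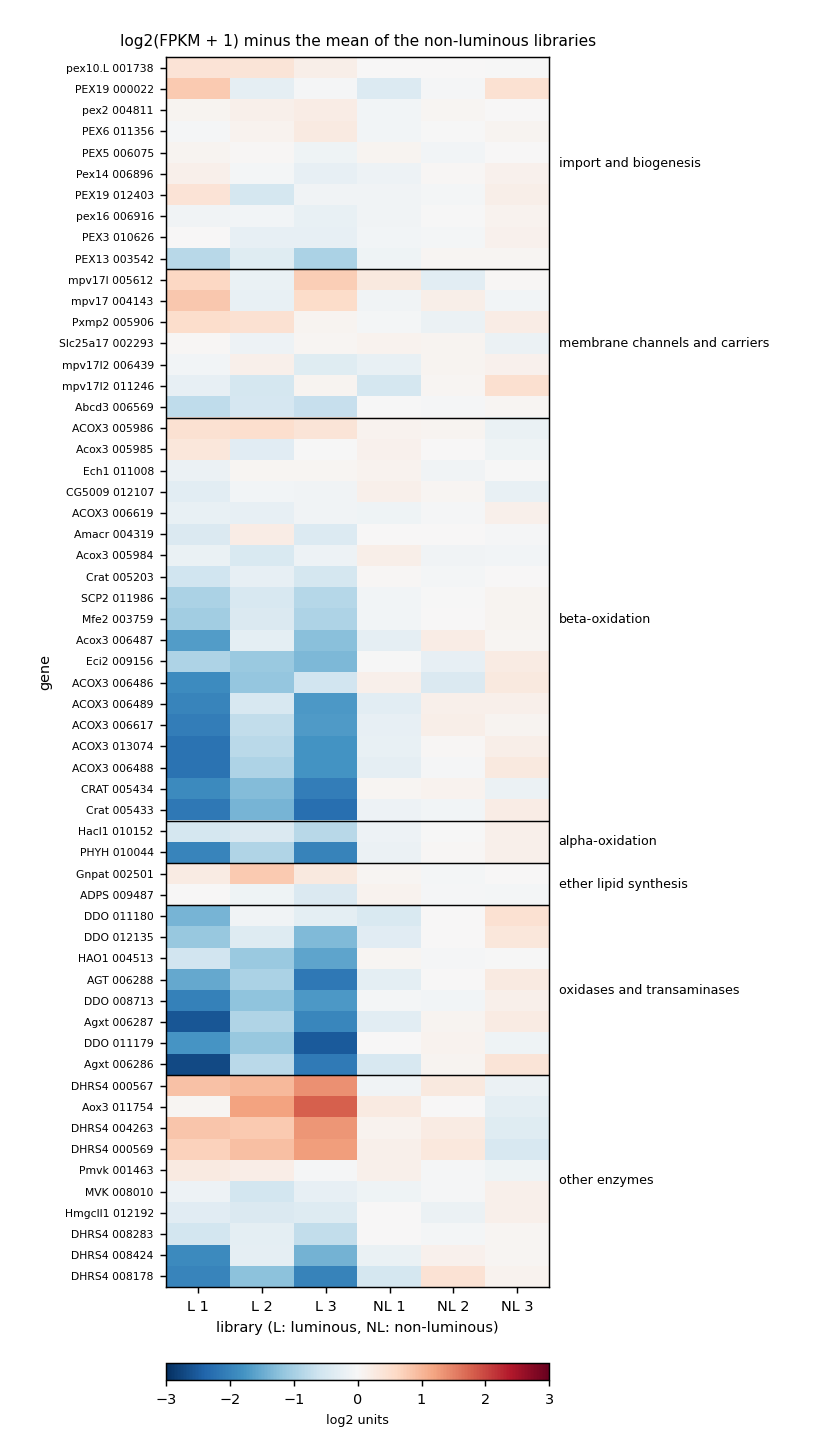
Level of 58 of the tested peroxisome genes in each library, as log2(FPKM + 1) minus the mean of the 3 non-luminous libraries. Columns are luminous (L) and non-luminous (NL) replicates, rows are genes grouped by role, blue is lower and red is higher. Luminous replicate 2 is paler than luminous replicates 1 and 3 in most rows of the oxidases and of the oxidase 3 copies.

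Luminous replicate 2 was the highest luminous library in 21 of the 24 members called lower (87.5%), against 61.3% of all genes called lower and 34.6% of all tested genes. HAO1 and Eci2 were among the 3 exceptions. Among the 13 import genes it was the highest in 2.

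Lipid-carrier genes of the fat body, the insect organ of lipid storage and export, were also highest in luminous replicate 2 among luminous libraries. Apolipophorin, the carrier protein, was described for 3 genes. RI129_012205 had 58.0, 135 and 86.4 FPKM in luminous libraries, against 188, 187 and 185 FPKM in non-luminous libraries, and RI129_002038 had 46.4, 103 and 65.3 FPKM in luminous libraries, against 156, 169 and 161 FPKM in non-luminous libraries. The whole list of 5 fat body genes summed to 171 to 309 FPKM in luminous and 363 to 379 FPKM in non-luminous libraries. Of its 4 tested genes 3 were lower, and the hexamerin gene RI129_012781 was higher, at 64.0, 65.5 and 33.8 FPKM in luminous libraries, against 12.6, 14.5 and 18.3 FPKM in non-luminous libraries. No gene of the list was at 0 in every library of an organ. The part of the fat body in the peroxisome results was not tested.

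Some lists of markers of other tissues differed too. For comparison with the counts below, 9.63% of all tested genes were called higher and 17.0% lower. Midgut genes, of which 39 of 77 tested were lower and 6 higher, summed to 2319 to 3337 FPKM in luminous and 6873 to 8648 FPKM in non-luminous libraries, with 20 of 130 at 0 in every luminous library. Muscle genes, of which 10 of 17 were higher and 1 lower, summed to 26355 to 26683 FPKM in luminous and 10511 to 13499 FPKM in non-luminous libraries. Oenocyte genes, of which 14 of 34 tested were higher and 4 lower, summed to 2488 to 3692 FPKM in luminous and 2095 to 2247 FPKM in non-luminous libraries. Sums of Malpighian tubule genes (3322 to 5713 FPKM in luminous and 4015 to 4539 FPKM in non-luminous libraries) and of haemocyte genes overlapped between the organs. Of 21 tested Malpighian tubule genes 5 were lower and 2 higher, and of 22 tested haemocyte genes 1 was lower and 2 higher. The tubule list mixes V-type proton ATPase genes with uricase and xanthine dehydrogenase genes. Uricase RI129_005001 and xanthine dehydrogenases RI129_006018, RI129_006019 and RI129_006020 were lower (differences of -1.59, -3.44, -1.55 and -1.02). Xanthine dehydrogenase RI129_006017 was not called. The ratio of luminous to non-luminous mean sums was 1.11 for neuron genes and 0.91 for testis and accessory gland genes. The part of these tissues in the peroxisome results was not tested either.

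Of the 40 genes of the pathway that the rule dropped, 35 were tested, with 10 higher (28.6%), 5 lower (14.3%) and a median difference of 0.17. Over all tested genes 9.63% were higher and 17.0% lower, so the share called lower was near that of all genes. The dropped genes included many fatty acyl-CoA reductases and the antioxidant enzymes. Fatty acid degradation genes outside the peroxisome pathway, most of them mitochondrial and without the dropped words, numbered 25 tested of 27. Of these 1 was higher (4%) and 14 were lower (56%), with a median of -0.50. Among the degradation genes Cpt1a (RI129_008941), which gates entry of fatty acids into mitochondria, averaged 162 FPKM in the luminous organ, against 173 FPKM for the non-luminous organ. It was not called (limma adjusted p = 0.603). ACADSB (RI129_000986), a branched-chain acyl-CoA dehydrogenase, averaged 335 FPKM in the luminous organ, against 800 FPKM for the non-luminous organ (difference -1.27, limma adjusted p = 0.00541). No test compared the lists with each other.

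The 6 members under the minimum were low in every library, with highest values between 0.556 and 2.26 FPKM. They were DHRS4 RI129_000568, Paox RI129_005116, CRAT RI129_005218, ACOX3 RI129_006490, mpv17l RI129_008607 and Phyh RI129_009935. The nearest to the minimum on either side were mpv17l at a mean of 0.830 FPKM and DDO RI129_011180 at 1.64 FPKM. With no minimum, ACOX3 RI129_006490 was called lower (limma adjusted p = 0.00817), and the other 5 were not called.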

How the data were processed

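The authors deposited 1 table of FPKM values, reads scaled to gene length and library total, for 12533 genes in 6 libraries, with gene descriptions, KEGG pathways and Gene Ontology terms; no value column lacked a sample. Tools named, without their roles, in the submitters' processing notes are R 3.2.0, HTSeq, HISAT2 and Trimmomatic. Genome build, annotation, strand and the treatment of reads matching several genes: not given in the sources used here. Low values stepped in whole reads: 99.99% of 11795 genes gave whole reads within 0.05, which gave library totals, reads and coding lengths (96.52% multiples of 3).

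Values were analysed as log2(FPKM + 1) with limma 3.58.1 in R 4.3.3 (empirical Bayes with an intensity trend), over genes whose mean over the 6 libraries reached 1 FPKM. Folds on this scale understate changes of low genes. Adjusted p-values are Benjamini-Hochberg over all 9863 tested genes. An exact permutation test of 3 libraries against 3 cannot go below 0.1, so none was run. Alternatives were other pseudocounts, filters, scalings and variance priors, a replicate block, voom on recovered reads, and leaving out each library.

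Named genes were, in each role, every called member, the most abundant ones, partners and consecutive steps, and members under the minimum. Values of some members are not reported here, though the counts include them. The members and lists were chosen with earlier results of these data known.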

Additional observations from a re-analysis of the deposited data

How the results depend on the processing

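All 27 called members kept their direction in those of the 15 alternatives that tested them. Of these members 11 kept their call in every alternative that tested them, and 20 in every such alternative with all 6 libraries. CRAT RI129_005434, counted among both, was not tested at a minimum mean of 5 FPKM. Of the 35 members not called, 10 were called under at least 1 alternative. Leaving out 1 library gave 362 to 954 genes higher and 757 to 1698 lower over all genes, and 1 to 4 higher and 10 to 27 lower among peroxisome genes, with a median of -0.34 to -0.22. By role it gave 0 to 2 import, 4 to 12 beta-oxidation, 1 to 2 alpha-oxidation, 3 to 7 oxidase and 1 to 3 other genes lower, 0 to 2 membrane and 1 to 4 other genes higher, and a median of -0.162 to -0.041 for other enzymes. Quantile normalization gave 1480 genes higher over all genes, 6 among peroxisome genes and 1 each in import, beta-oxidation and ether lipid synthesis; the medians were -0.13 for all members, 0.12 for membrane genes, 0.37 for ether lipid genes and 0.059 for other enzymes. Median-of-ratios rescaling gave 1 beta-oxidation gene higher and medians of -0.16 for all members and 0.0096 for other enzymes. Of all calls, 53.8% were higher under quantile normalization and 46.3% under median-of-ratios, against 36.2% as deposited. The median of all members was -0.28 with voom, -0.20 at pseudocount 5 and -0.22 without a filter. With no filter the alpha-oxidation median was -0.60 and that of other enzymes 0.14, since genes near 0 enter. The cause of the other changes was not tested. Deviations from the organ mean were not positively correlated between libraries of the same replicate number (-0.111, -0.009 and -0.166). With 3 libraries per organ, this cannot tell whether the samples were taken in pairs. With the number as a replicate block the members gave 2 higher and 20 lower, with 1 lower gene each in import, alpha-oxidation and other enzymes. Calls lost with the block included Hacl1, Crat RI129_005203 and DDO RI129_012135 (limma adjusted p of 0.0592, 0.0771 and 0.0595). Those of DHRS4 RI129_000569 and RI129_008283 were lost too (0.0721 and 0.0633), and ACOX3 RI129_006487 was called lower (0.0302). Low genes rest on few reads, which limits the tests of members near 1 FPKM.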

Other observations

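Genes with a Gene Ontology term naming the peroxisome, but outside the pathway and not described as luciferin 4-monooxygenase, numbered 69, of which 64 were tested. Of these 5 were higher, 26 lower and 33 not called, with a median difference of -0.39. With the luciferin 4-monooxygenase genes included, 85 were tested, with 8.24% higher and 44.7% lower. Over all tested genes 9.63% were higher and 17.0% lower. Uro (RI129_005001), the peroxisomal uricase, had 414, 552 and 316 FPKM in luminous libraries, against 1061, 1225 and 1512 FPKM in non-luminous libraries (-1.59, SE 0.226, limma adjusted p = 0.00398), without overlap. masA (RI129_008028), described as malate synthase, an enzyme of the glyoxylate cycle, had 39.7, 48.2 and 30.5 FPKM in luminous libraries, against 64.6, 79.2 and 89.8 FPKM in non-luminous libraries (-0.97, SE 0.195, limma adjusted p = 0.0120). Tmem135 (RI129_010994), a membrane protein of peroxisomes and mitochondria in mammals, averaged 28.8 ± 5.6 FPKM in the luminous organ, against 63.4 ± 3.09 FPKM for the non-luminous organ (SD, n = 3 each; -1.13, limma adjusted p = 0.00359).

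The division and processing factors gave a mixed picture. Fis1 (RI129_004083), a membrane anchor in the fission of mitochondria and peroxisomes, had 185, 143 and 180 FPKM in luminous libraries, against 102, 123 and 121 FPKM in non-luminous libraries (0.55, SE 0.140, limma adjusted p = 0.0263), without overlap. Dnm1l (RI129_005003), the dynamin that cuts both organelles, averaged 18.5 ± 1.38 FPKM in the luminous organ, against 17.4 ± 2.37 FPKM for the non-luminous organ (SD, n = 3 each) and was not called. TYSND1 (RI129_003863), a protease that trims imported peroxisomal enzymes, averaged 56.3 ± 2.30 FPKM in luminous and 63.0 ± 4.19 FPKM in non-luminous libraries with overlapping groups and was not called. These genes were chosen after their values were seen.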
